A study of Mus musculus with 27 samples.

Results

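The collagen genes were taken as the entries of the deposited FPKM table whose symbol is Col, a number, the letter a and a number, which gave 44 of 23604 gene entries. They were followed through 19 bulk RNA-seq libraries of mouse pluripotent stem cells, and in fPSCs also through histone modification and DNA methylation files and single-cell counts. The labels give every sample the genotype WT, although 3 of the fPSC backgrounds are reporter lines (below), and they name no treatment beyond the culture media. The libraries are 2 of naïve mESCs kept without feeders on gelatin with 2 inhibitors and LIF, and 2 of EpiLCs, the short-lived epiblast-like cells induced from mESCs in N2B27 medium with KSR, Activin A and bFgf2. There are 2 of EpiSCs, the primed stem cells of the postimplantation epiblast, which were grown on a layer of Mitomycin C-inactivated mouse embryonic fibroblasts in N2B27 with KSR, Activin A, bFGF2 and the tankyrase inhibitor XAV939. Epiblastoids, 3D structures grown from mESCs in Matrigel with Activin A and bFgf2, have 1 library each at days 2, 3 and 4. The fPSCs are Epiblastoids kept with XAV939 added: 1 library at passage 1 (P1) and 7 long-term libraries, namely P10, P20, P30 and CMT P11 of the CMT background, and 46C P24, BVSC P14 and ROSAmTmG P12. Per the study, 46C carries a Sox1-GFP reporter, BVSC Blimp1 and Stella reporters and ROSAmTmG a fluorescent reporter at the Rosa locus, and CMT P11 is a cryopreserved passage. In addition, 2 fPSC lines were started from E5.5 and E6.5 epiblasts, each with 1 library. No feeders are named for any of the 17 libraries other than EpiSCs, and they are called feeder-free here, although the labels of EpiLCs name no growth surface. The 7 long-term fPSC libraries differ in passage and genetic background. Nothing says that same-group libraries came from separate cultures, so their spread may be partly technical. CMT P11, 46C P24, BVSC P14 and ROSAmTmG P12 are taken as a second deposit, as their sample descriptions differ, and the other 15 libraries as the first. The backgrounds other than CMT occur only in the second deposit, so background and deposit cannot be told apart for them.

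Collagens are secreted or membrane-bound proteins built from 3 chains wound into a triple helix, and each gene encodes 1 chain. Fibrillar collagens such as types I, II, III and V form the fibres of connective tissue, whereas type IV forms the network of basement membranes, the thin sheets under epithelia such as the epiblast. Collagen XVIII is a basement membrane proteoglycan whose end fragment is endostatin. Fibroblasts are a major source of types I, III and VI, and the parietal endoderm of the mouse embryo makes large amounts of type IV for Reichert's membrane. Matrigel, in which Epiblastoids and fPSCs were grown, is itself a basement membrane protein gel that contains type IV collagen, but RNA-seq does not measure its protein.

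Values are FPKM, fragments scaled to transcript length and library size, so levels can be set side by side between genes. Read depth is unknown, since the table holds no counts. Summed FPKM per library was 307394 to 414727 and 10034 to 10933 genes reached 1 FPKM. Of the feeder-free libraries, Epiblastoids day 4 and fPSCs 46C P24 had the highest sums of endoderm markers. The endoderm list (10 genes, Gata4, Gata6 and Sox17 among them) summed to 234 FPKM in Epiblastoids day 4 and 208 FPKM in fPSCs 46C P24, against 13.4 FPKM in the lowest feeder-free library. The mesoderm list (8 genes) summed to 713 FPKM at day 4. The lines from E5.5 and E6.5 epiblasts shared some of these markers, with Foxa2 at 68.01 and 58.77 FPKM and Eomes at 62.38 and 47.05. Counts that rest on these libraries are given with and without them.

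Of the 44 collagens, 25 reached 1 FPKM in at least 1 library, 15 reached 5 FPKM, and 19 stayed below 1 FPKM in all 19 libraries. In EpiSCs, 19 collagens reached 1 FPKM in each library, against 1 to 12 in the feeder-free libraries. Summed collagen FPKM was 580 and 831 in EpiSCs, or 0.172% and 0.255% of all FPKM. In mESCs it was 34.1 and 21.0, in EpiLCs 148 and 114, and in the long-term fPSCs 57.7 to 69.8 with a median of 64.1. Epiblastoids had 164, 135 and 131 at days 2, 3 and 4, fPSCs P1 had 111, and the lines from E5.5 and E6.5 epiblasts 57.3 and 91.8. Both EpiSCs libraries thus lay above each of the feeder-free ones, of which mESCs were lowest.

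**Figure D1:**
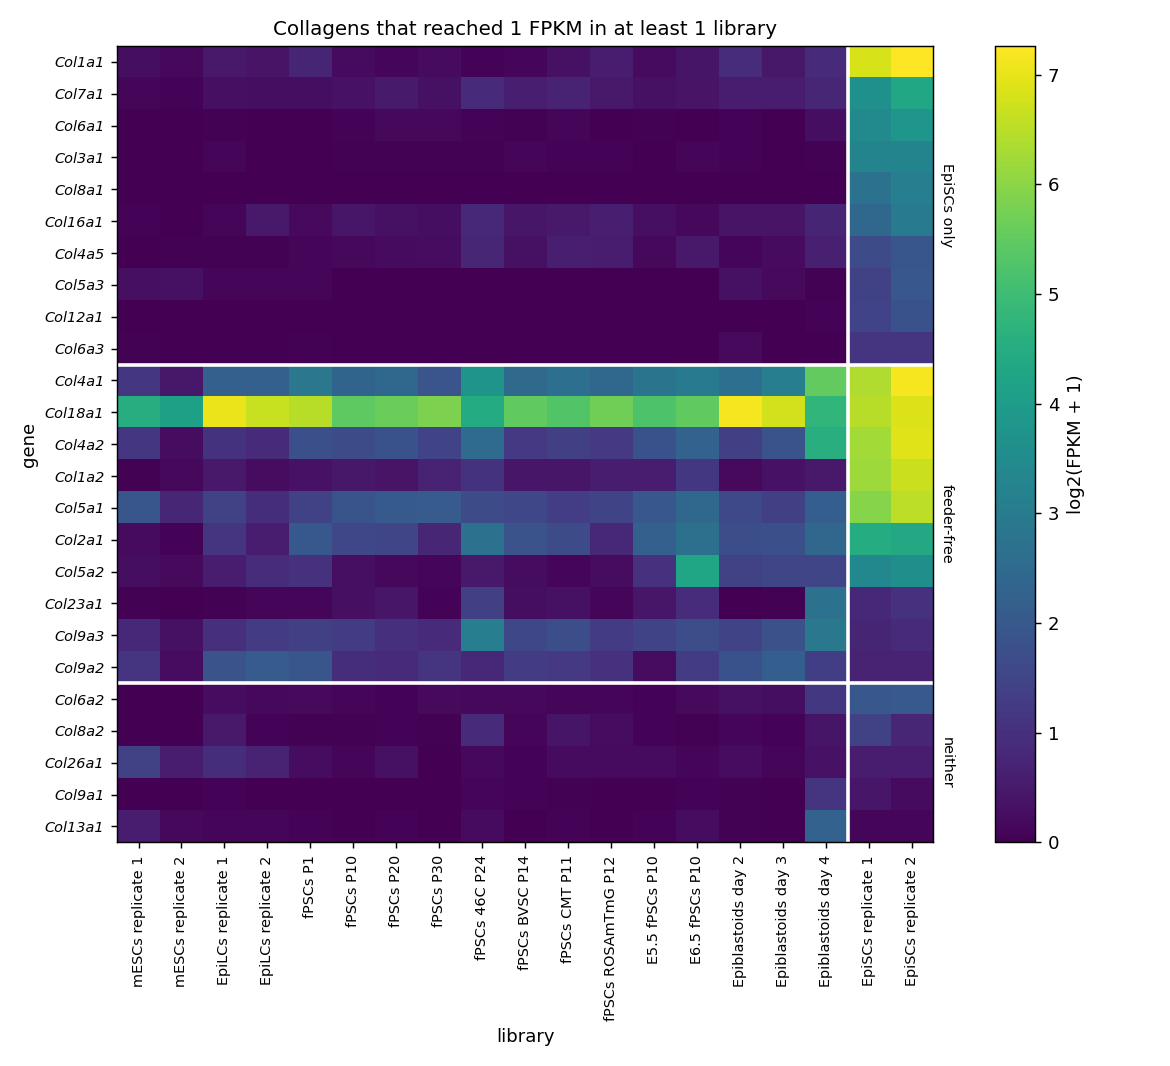
Heatmap of the 25 collagens that reached 1 FPKM in the 19 libraries (columns), with colour giving log2(FPKM + 1). The lines of the map are ordered by level set (EpiSC-restricted, feeder-free, neither) and then by mean in EpiSCs. The EpiSCs columns are filled across the fibrillar, basement membrane and beaded filament groups, while Col18a1 is the gene that is high in most other columns.

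The collagens were split into sets by level. There were 10 that reached 1 FPKM in both EpiSCs libraries and in none of the 17 feeder-free ones, a rule that 0.932% of all genes met: Col1a1, Col7a1, Col6a1, Col3a1, Col8a1, Col16a1, Col4a5, Col5a3, Col12a1 and Col6a3. They are called the EpiSC-restricted collagens below. Another 10, the feeder-free collagens, reached 1 FPKM in at least 2 feeder-free libraries, as did 52.3% of all genes: Col4a1, Col18a1, Col4a2, Col1a2, Col5a1, Col2a1, Col5a2, Col23a1, Col9a3 and Col9a2. These sets were chosen on the values, so they are descriptions. Closest to the limit inside the EpiSC-restricted set were Col1a1, whose highest feeder-free value was 0.878 FPKM, and Col7a1 with 0.840 FPKM, and at a limit of 0.5 FPKM the set kept 6 genes and the feeder-free set grew to 19. Just outside was Col6a2, which had 2.90 and 3.07 FPKM in EpiSCs but 1.27 FPKM in Epiblastoids day 4. Without day 4 and the epiblast-derived lines the sets held 11 and 8 genes, and without 46C P24 10 and 8. The type I chains fell into different sets, because Col1a2 passed 1 FPKM in 46C P24 with 1.08 FPKM and in the E6.5 line with 1.26 FPKM. At a limit of 2 FPKM the sets held 9 and 7 genes, with Col1a2 in the EpiSC-restricted one. Of the 25 collagens that reached 1 FPKM, 16 had both EpiSCs libraries above all 17 feeder-free ones, as did 13.7% of 13248 genes. The 10 EpiSC-restricted collagens are among the 16 by definition, so this count is a description and no test.

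The make-up of collagen RNA differed as well. Col18a1 alone supplied 88.6% and 87.1% of collagen FPKM in EpiLCs, 64.8% and 79.2% in mESCs, and 66.6% to 80.8% in 6 of the 7 long-term fPSC libraries. In EpiSCs it supplied 15.2% and 14.1%, the type IV chains Col4a1 and Col4a2 27.4% and 31.4%, and the type I chains Col1a1 and Col1a2 31.7% and 30.6%. No feeder-free library had more than 1.76% from the type I chains. The feeder-free libraries with the smallest Col18a1 shares were Epiblastoids day 4 with 20.3% and 46C P24 with 32.8%, and their type IV shares were 51.7% and 27.1%. The E6.5 line followed with 47.7% from Col18a1 and 33.3% from fibrillar chains.

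**Figure D2:**
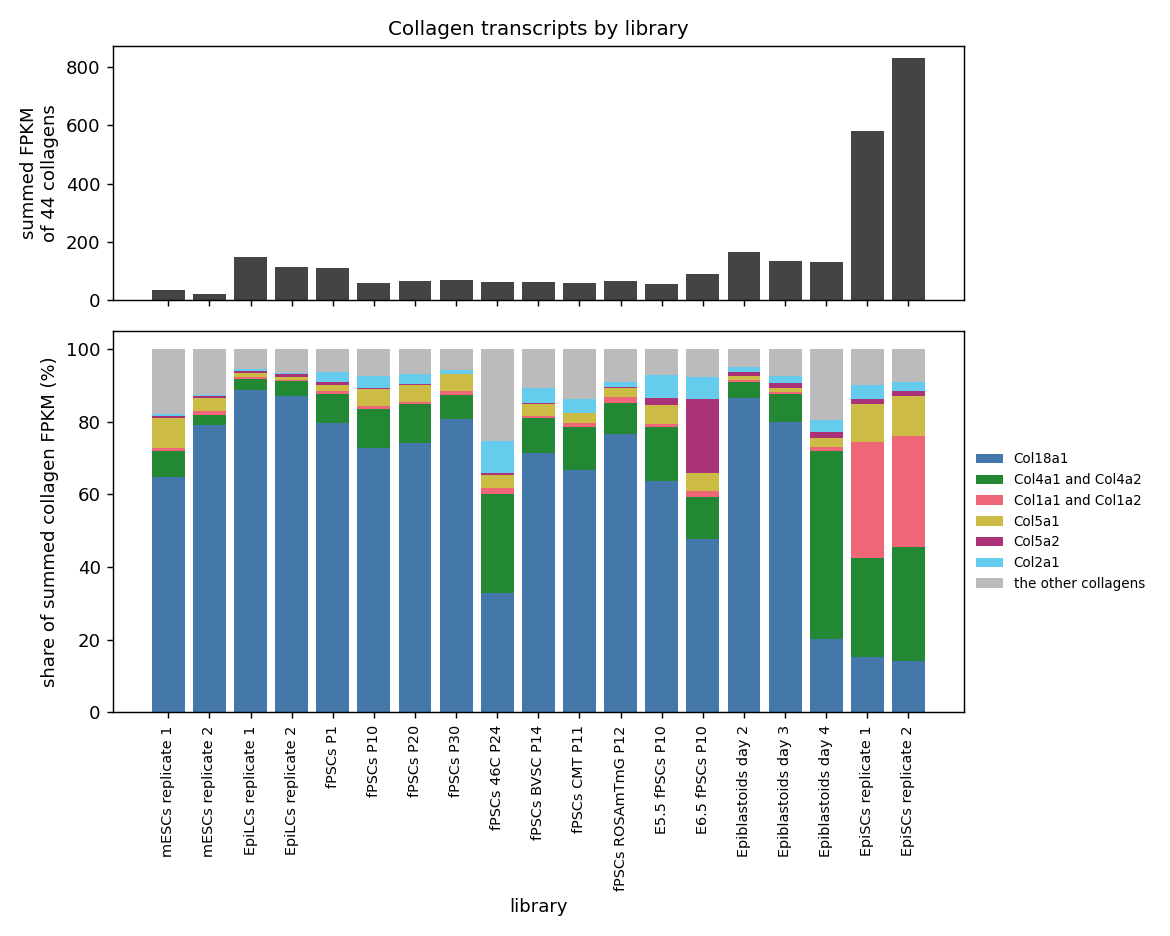
Summed collagen FPKM (upper panel) and the percentage of it from named collagens (lower panel) in each of the 19 libraries. EpiSCs reach 580 and 831 FPKM with about equal parts from type I and type IV chains, and Col18a1 gives most of the collagen FPKM in the feeder-free libraries except Epiblastoids day 4 (20.3%), 46C P24 (32.8%) and the E6.5 line (47.7%).

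Because EpiSCs were the only cells on fibroblasts, the feeder layer and the EpiSC state cannot be told apart, and in bulk RNA a change in the share of a cell type cannot be told apart from a change in RNA per cell. A list of 18 fibroblast markers without collagens summed to 564 and 608 FPKM in EpiSCs, against 5.83 to 59.4 in the feeder-free libraries, and 12 or 13 of the 18 reached 1 FPKM in EpiSCs. By limma, 12 fibroblast genes were tested, but 6 of them reached the level needed for testing through the EpiSCs libraries, so that they had to be high there; of the other 6, 5 were higher in EpiSCs than in long-term fPSCs, as were 19% of all genes. Most of that sum came from Tagln (276 and 322 FPKM), Acta2 (161 and 160 FPKM) and Fstl1 (67.6 and 53.4 FPKM); Tagln and Acta2 encode contractile proteins. Of the defining fibroblast genes, Fap had 0 and 0.00321 FPKM and Pdgfra 0.122 and 0.106, the latter within its feeder-free range. Mgp had 0.354 and 0.357 FPKM, Postn 0.274 and 0.798, Lum 0.590 and 0.501, and Prrx1 0.398 and 1.02. These 4 genes were low in EpiSCs but above every feeder-free library, where the highest values were 0, 0.0472, 0.0391 and 0.0403 FPKM. Fbln2 (15.35 and 18.97 FPKM), Loxl1 (12.26 and 20.87) and Fbn1 (4.947 and 5.32) were also above their feeder-free maxima of 7.607, 1.545 and 1.324. So were Ccl2 (4.589 and 5.637), Twist2 (3.512 and 6.065) and S100a4 (5.015 and 2.484), with maxima of 0.03734, 0.325 and 1.263. Pdgfrb, at 3.667 and 4.669 FPKM, lay below Epiblastoids day 4 with 5.099 FPKM. Thy1, at 4.63 and 4.01 FPKM, lay within its feeder-free range of 0.595 to 7.64 FPKM, and Dcn, at 2.82 and 1.88 FPKM, lay below EpiLCs replicate 2 with 6.10 FPKM. For the other cell types, the endoderm list summed to 86.1 to 99.7 FPKM in EpiSCs, within the feeder-free range of 13.4 to 234. Lamb1 alone gave 55.0 and 62.7 FPKM of it, while Sox17 had 0.0978 and 0.228. Lamb1, Thbd (7.366 and 12.38 FPKM), Dab2 (5.223 and 9.491) and Sox7 (0.4145 and 0.5363) lay above every feeder-free library. Foxa2, at 12.11 and 9.332 FPKM, and the rest of the list lay within their feeder-free ranges. The mesoderm list summed to 93.9 to 143 FPKM in EpiSCs (feeder-free 15.9 to 713), led by Hand1 with 32.7 and 56.8 FPKM and T with 30.1 and 42.5 FPKM. By limma against fPSCs, Lefty2 and Snai1 were higher in EpiSCs, as was Hand1, which was tested through the EpiSCs libraries alone. Eomes and Mixl1 were lower (log2 differences -2.462 and -2.121). Mesp1 had 0.05942 and 0.293 FPKM in EpiSCs and Tbx6 0.4985 and 0.2167. The part of any of these cell types in the EpiSCs values was not tested.

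Differences between groups were tested by limma across 12513 genes on log2(FPKM + 1), and a change was called at a Benjamini-Hochberg adjusted p under 0.05 with at least 1.5-fold. Of the 44 collagens, 21 were tested. Only 7 of them (Col18a1, Col2a1, Col4a1, Col4a2, Col5a1, Col9a2 and Col9a3) would have been tested without the EpiSCs libraries, so the other 14 had to be high in EpiSCs and neither the counts nor the levels of all 21 are evidence. Against mESCs, 19 of 21 were higher in EpiSCs and 0 lower, where 23.1% of all genes were higher and 24.7% lower. Against EpiLCs, 17 were higher (20.4% of all genes) and 1 was lower (15.5%). Against the long-term fPSCs, 18 were higher (19% of all genes) and 0 lower (13.3%). With no filter on low values, 19 of the 44 collagens were higher in EpiSCs than in fPSCs, against 9.83% of all 23604 genes. Of the 7 collagens that did not depend on EpiSCs for testing, 5 were higher and 0 lower in EpiSCs against mESCs, 4 and 1 against EpiLCs, and 5 and 0 against fPSCs. On the log2 scale the median difference of these 7 was 4.29, 3.61 and 2.88 in the 3 comparisons, and that of all genes tested was -0.09, -0.03 and -0.02. The 5 that were higher than in fPSCs were Col4a2, Col5a1, Col4a1, Col2a1 and Col18a1. Col9a3 and Col9a2 gave differences of -0.73 and -0.33 with adjusted p = 0.206 and 0.213.

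Among the feeder-free groups the counts over the 21 include the 14 collagens that were tested only through the EpiSCs libraries. EpiLCs were above mESCs in 3 of 21 (12.2% of all genes were higher), long-term fPSCs above mESCs in 4 (17.3%), and fPSCs below EpiLCs in 2 (8.15%), with 0 in the opposite directions (17.4%, 23% and 5.66% of all genes). All of these calls were among the 7 collagens that did not depend on EpiSCs, with 3, 4 and 2 of the 7. These 7 passed by their levels in the groups compared here, so neither share is evidence about collagens as a set. With a pseudocount of 0.1 the counts over the 21 were 6, 11 and 5, of which 1 each was in the opposite direction. The fPSC counts were 5 and 2 without 46C P24, and 3 and 2 without the cryopreserved CMT P11. The 4 calls of fPSCs against mESCs were Col4a1, Col2a1, Col18a1 and Col4a2, and 0 remained without mESCs replicate 2, the mESCs library with the lower values of all 4. The counts of EpiSCs stayed at 17 to 19 when each of their replicates, 46C P24 or CMT P11 was left out.

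**Figure D3:**
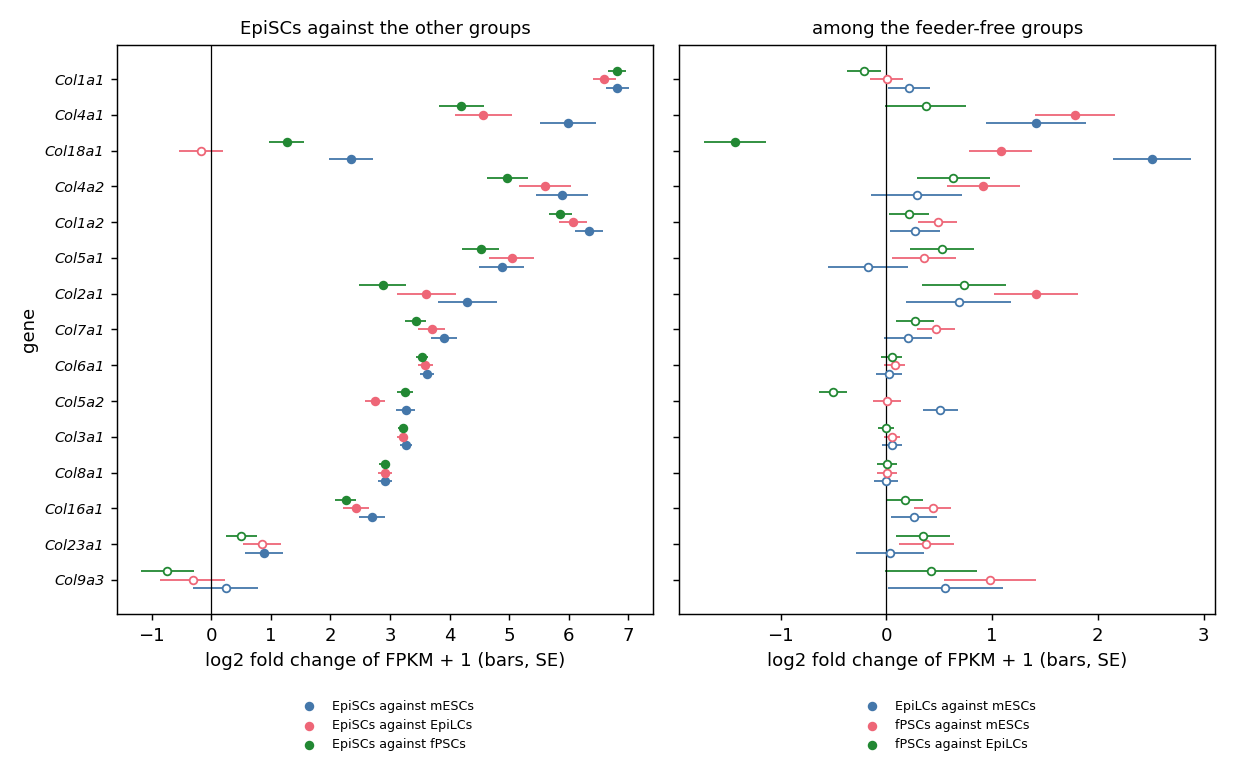
Log2 difference with its SE for the 15 collagens that reached 5 FPKM, by comparison; filled points passed adjusted p under 0.05 with at least 1.5-fold in limma. The points of EpiSCs (left panel) lie right of 0, up to 6.81 for Col1a1 against fPSCs, except for Col18a1 against EpiLCs and Col9a3 against EpiLCs and fPSCs. Of the genes shown, only Col18a1, Col2a1, Col4a1, Col4a2, Col5a1 and Col9a3 would have been tested without the EpiSCs libraries. In the feeder-free comparisons (right panel) the filled points are those of Col18a1, Col4a1, Col4a2 and Col2a1, and Col9a3 has an open point at 0.98 for fPSCs against mESCs.

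Among the fibrillar collagens, Col1a1 encodes the α1 chain of type I collagen, the main fibre of skin, bone and tendon. It had 111 and 153 FPKM in EpiSCs, against 0.214 and 0.125 in mESCs and 0.405 and 0.306 in EpiLCs. In the long-term fPSCs it had 0.0485 to 0.465 with a median of 0.148 FPKM, and Epiblastoids had 0.878, 0.384 and 0.866 at days 2, 3 and 4. EpiSCs overlapped no other library, as the rule of the EpiSC-restricted set requires. The log2 difference of EpiSCs and fPSCs was 6.81 ± 0.158 (SE, 2 against 7 libraries, limma adjusted p = 1.13e-11). Col1a1 was tested only through the EpiSCs libraries and had to be high there, so this p-value is a description and no evidence. The SE comes from the spread shared by the 13 libraries fitted and not from EpiSCs alone.

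Col1a2, the α2 chain of the same trimer, had 72.6 and 102 FPKM in EpiSCs. In mESCs it had 0.0337 and 0.106, in EpiLCs 0.414 and 0.171, and in long-term fPSCs 0.304 to 1.08 with a median of 0.391 FPKM, the highest being 46C P24. Again the EpiSCs values stood far from the rest, with a log2 difference to fPSCs of 5.86 ± 0.189 (SE, limma adjusted p = 1.36e-10). Col1a2 too was tested only through the EpiSCs libraries, so this p-value is no evidence. Type I collagen is made of α1 and α2 chains, and the FPKM ratio of Col1a1 to Col1a2 was 1.53 and 1.5 in EpiSCs. In 46C P24 it was 0.0449 and in the E6.5 line 0.265, where Col1a1 had 0.0485 and 0.334 FPKM. The chains were thus not at the EpiSCs ratio in the libraries that put Col1a2 over the limit. This was not particular to them, as the other long-term fPSC libraries had ratios of 0.233 to 0.953 and the E5.5 line 0.335, all from low values.

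Col3a1 encodes type III collagen, which forms fine fibres with type I in soft tissue. It had 8.66 and 8.68 FPKM in EpiSCs and at most 0.0805 in the feeder-free libraries. The difference to fPSCs was 3.22 ± 0.0755 on the log2 scale (SE, limma adjusted p = 1.13e-11). As with type I, Col3a1 was tested only through the EpiSCs libraries, so this p-value is no evidence.

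The regions around the starts of Col1a2 and Col3a1 are shown because H3K4me3 and methylation in fPSCs were far apart at these genes. Each region is 250 bases before and 50 after the start, 5′ to 3′ on the gene's strand (RefSeq, matched exactly to build NCBIM37, which is mm9). Capitals mark, on either strand, the letters CCAAT, a string found in many promoters, GGGCGG, the string of the GC box, or TATAAA, that of the TATA box. The Col1a2 region is at chr6:4455368-4455667 on the + strand and the Col3a1 region at chr1:45368133-45368432 on the + strand.
Col1a2: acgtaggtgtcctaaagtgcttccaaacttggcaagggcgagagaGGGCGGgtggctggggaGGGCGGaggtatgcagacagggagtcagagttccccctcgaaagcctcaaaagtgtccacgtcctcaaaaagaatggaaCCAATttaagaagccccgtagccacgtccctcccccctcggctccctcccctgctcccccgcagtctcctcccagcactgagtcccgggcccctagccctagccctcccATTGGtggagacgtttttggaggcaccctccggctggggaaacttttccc
Col3a1: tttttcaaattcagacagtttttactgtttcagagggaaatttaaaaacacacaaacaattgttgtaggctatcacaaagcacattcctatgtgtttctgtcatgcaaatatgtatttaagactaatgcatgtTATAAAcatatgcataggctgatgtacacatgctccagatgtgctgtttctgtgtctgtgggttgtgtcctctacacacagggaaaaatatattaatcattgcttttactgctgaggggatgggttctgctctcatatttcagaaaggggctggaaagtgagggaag
The Col1a2 window held 13 CpG and 61% G and C with 2 CCAAT and 2 GGGCGG, and the Col3a1 window held 0 CpG and 37.7% G and C with 1 TATAAA. In fPSCs P10, the mean methylation within 1000 bp of the annotated start was 0.0844 for Col1a2 and 0.928 for Col3a1. H3K4me3, a mark of active or poised promoters, averaged 3.36 and 0.447 RPKM within 2500 bp. The annotated Col1a2 start used here, at position 4454814, lies before the printed window. Around its other annotated starts at 4455493 and 4455697, methylation was 0.0433 and 0.0877 and H3K4me3 3.23 and 3.21 RPKM. In the fPSCs P10 library Col1a2 had 0.391 FPKM and Col3a1 0.0206 FPKM, so neither was expressed at 1 FPKM.

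Type V collagen starts and limits the thickness of type I fibrils. Col5a1 had 60.5 and 92.2 FPKM in EpiSCs, 2.86 and 0.732 in mESCs, 1.72 and 0.940 in EpiLCs, and 1.51 to 3.21 with a median of 2.23 FPKM in long-term fPSCs. It was low but present in 15 of the 17 feeder-free libraries at 1 FPKM or more, and EpiSCs were higher than fPSCs by 4.52 ± 0.304 (log2, SE, limma adjusted p = 1.44e-07). Its partner Col5a2 had 9.41 and 11.2 FPKM in EpiSCs, 0.212 and 0.133 in mESCs, 0.474 and 0.889 in EpiLCs, and 0.0627 to 0.405 with a median of 0.173 FPKM in long-term fPSCs. EpiSCs were higher than fPSCs by 3.26 ± 0.132 (log2, SE, limma adjusted p = 1.18e-09). Unlike Col5a1, Col5a2 was tested only through the EpiSCs libraries, so its p-value is no evidence. The highest Col5a2 value was not in EpiSCs but in the line from E6.5 epiblasts, with 18.8 FPKM against 1.05 FPKM in the E5.5 line. No other fibrillar collagen above 5 FPKM had a feeder-free library above EpiSCs, and the ratio of Col5a1 to Col5a2 was 0.236 there and 6.43 and 8.26 in EpiSCs. Each epiblast-derived line has 1 library, so the value has no replicate check. Col5a3, the third chain, had 1.68 and 2.94 FPKM in EpiSCs and at most 0.257 elsewhere.

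Col2a1, the type II chain of cartilage and notochord, had 21.5 and 20.0 FPKM in EpiSCs, 0.156 and 0.0580 in mESCs and 1.13 and 0.487 in EpiLCs. Long-term fPSCs had 0.726 to 5.68 FPKM with a median of 1.89, and the line from E6.5 epiblasts had 5.45. Every long-term fPSC library lay above both mESCs and below both EpiSCs libraries. EpiSCs were higher than fPSCs by 2.88 ± 0.397 (log2, SE, limma adjusted p = 0.000117), and fPSCs were higher than mESCs by 1.42 ± 0.397 (adjusted p = 0.0110). The fPSC difference to mESCs had adjusted p = 0.0683 and 0.0933 without mESCs replicate 1 or 2, and 0.00407 without 46C P24.

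The basement membrane chains Col4a1 and Col4a2, which assemble as 2 α1 chains with 1 α2 chain, were among the feeder-free collagens and also much higher in EpiSCs. Col4a1 had 83.6 and 142 FPKM in EpiSCs, 1.20 and 0.374 in mESCs, and 3.64 and 3.65 in EpiLCs. Long-term fPSCs had 2.75 to 12.6 FPKM with a median of 4.52, and fPSCs P1, the E5.5 line and the E6.5 line had 6.37, 5.88 and 6.74. EpiSCs were higher than fPSCs by 4.20 ± 0.380 (log2, SE, limma adjusted p = 2.59e-06), and fPSCs higher than mESCs by 1.79 ± 0.380 (adjusted p = 0.00198). The latter had adjusted p = 0.0539 without mESCs replicate 2. EpiLCs were above mESCs by 1.42 ± 0.474 (adjusted p = 0.0383), a call that was lost without any 1 of the 4 libraries, with adjusted p = 0.0538 to 0.234, and with no filter on low values (0.0820).

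Col4a2 had 75.5 and 119 FPKM in EpiSCs, 1.22 and 0.174 in mESCs, 1.1 and 0.840 in EpiLCs, and 1.29 to 4.81 with a median of 1.77 FPKM in long-term fPSCs. The EpiSCs values were again the highest of all libraries. EpiSCs were higher than fPSCs by 4.97 ± 0.345 (log2, SE, limma adjusted p = 1.91e-07), and fPSCs higher than mESCs by 0.92 ± 0.345 (adjusted p = 0.0462). This last call was not stable. It was lost at a 2-fold limit, with adjusted p = 0.477 without mESCs replicate 2, 0.0506 without CMT P11, 0.0975 with the second deposit of fPSCs alone, 0.0958 with no filter on low values and 0.0642 with the 2 groups fitted alone. The pair shared a start region, so its promoter windows are printed together. Per the mm9 annotation Col4a1 lies on the - strand at chr8:11198423-11312826 and Col4a2 on the + strand at chr8:11312805-11449287, so that the genes overlap by 22 bases at their starts. Reads of these bases cannot be assigned, as no strand setting of the counting is given. The Col4a1 window is chr8:11312777-11313076 and the Col4a2 window chr8:11312555-11312854, which overlap in 78 bases.
Col4a1: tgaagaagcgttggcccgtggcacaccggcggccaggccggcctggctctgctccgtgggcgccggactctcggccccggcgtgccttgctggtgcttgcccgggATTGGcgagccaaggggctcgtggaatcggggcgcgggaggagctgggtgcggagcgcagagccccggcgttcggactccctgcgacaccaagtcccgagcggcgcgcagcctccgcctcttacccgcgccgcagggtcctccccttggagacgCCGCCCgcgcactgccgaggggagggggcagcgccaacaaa
Col4a2: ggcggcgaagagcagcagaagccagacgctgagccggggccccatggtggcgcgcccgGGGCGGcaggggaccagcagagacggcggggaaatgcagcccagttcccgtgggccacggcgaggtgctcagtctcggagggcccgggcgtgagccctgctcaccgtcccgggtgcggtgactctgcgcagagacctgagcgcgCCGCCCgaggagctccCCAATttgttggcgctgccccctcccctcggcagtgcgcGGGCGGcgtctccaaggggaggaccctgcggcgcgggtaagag
With the same capitals as above, the Col4a1 window held 1 CCAAT and 1 GGGCGG with 37 CpG, and the Col4a2 window 1 CCAAT and 3 GGGCGG with 33 CpG. In fPSCs P10 this shared region, which counts for both genes and is not independent for them, had 5.32 RPKM of H3K4me3, 2.95 RPKM of H3K27me3, a mark laid down by Polycomb complexes, and a methylation level of 0.00824.

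The ratio of the chains varied between libraries. Col4a1 was 1.1 and 1.2 times Col4a2 in EpiSCs, against 1.56 to 3.67 times in the long-term fPSCs and 0.985 to 4.34 times (median 2.61) in all feeder-free libraries, 16 of 17 of which lay above both EpiSCs. The geometric mean ratio was 1.15 in EpiSCs and 2.48 in long-term fPSCs, a log2 difference of -1.1. An exact two-sided permutation test gave p = 0.0556, the smallest that the 36 ways of choosing 2 of 9 libraries allow, so this design cannot reach 0.05. By deposit, the fPSCs had geometric means of 1.72 in the 3 libraries of the first and 3.26 in the 4 of the second, both above EpiSCs. Of the minor chains, Col4a5 had 2.18 and 2.87 FPKM in EpiSCs and at most 0.728 elsewhere, and Col4a6 had 0.643 and 0.682.

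Col18a1 behaved unlike the other abundant collagens. It had 22.1 and 16.6 FPKM in mESCs, 131 and 99.5 in EpiLCs, and 88.3 and 117 in EpiSCs. Epiblastoids had 142 and 108 FPKM at days 2 and 3 and 26.6 at day 4, fPSCs P1 had 88.6, long-term fPSCs 21.0 to 56.5 with a median of 44.4, and the epiblast-derived lines 36.5 and 43.8. EpiLCs and EpiSCs overlapped and did not differ beyond the spread (log2 difference -0.17 ± 0.369, SE, limma adjusted p = 0.752), and both were higher than mESCs, by 2.51 and 2.35 (adjusted p = 0.000207 and 0.000198). Long-term fPSCs lay between, above mESCs by 1.08 ± 0.296 (adjusted p = 0.00969) and below EpiLCs by 1.43 (log2 difference -1.43, adjusted p = 0.00523). EpiSCs were higher than fPSCs by 1.27 ± 0.296 (adjusted p = 0.00548). These 3 intermediate calls each rested on 1 library in part, with adjusted p = 0.126 without mESCs replicate 2, 0.096 without EpiLCs replicate 1 and 0.103 without EpiSCs replicate 2. In order, mESCs were lowest, fPSCs next and EpiLCs and EpiSCs highest, with mESCs and fPSCs overlapping through 46C P24.

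Col18a1 has 2 promoters, which encode shorter and longer forms of the protein, and both windows are shown because H3K4me3 in fPSCs was high at the upstream window. The upstream window is chr10:76629226-76629525 and the downstream window chr10:76576401-76576700, both on the - strand.
Col18a1 upstream: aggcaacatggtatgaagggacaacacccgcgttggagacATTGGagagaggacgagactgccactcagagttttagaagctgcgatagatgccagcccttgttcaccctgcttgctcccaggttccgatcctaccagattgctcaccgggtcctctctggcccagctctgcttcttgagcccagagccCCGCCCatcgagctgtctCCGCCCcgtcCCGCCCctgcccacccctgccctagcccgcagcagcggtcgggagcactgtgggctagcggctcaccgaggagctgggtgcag
Col18a1 downstream: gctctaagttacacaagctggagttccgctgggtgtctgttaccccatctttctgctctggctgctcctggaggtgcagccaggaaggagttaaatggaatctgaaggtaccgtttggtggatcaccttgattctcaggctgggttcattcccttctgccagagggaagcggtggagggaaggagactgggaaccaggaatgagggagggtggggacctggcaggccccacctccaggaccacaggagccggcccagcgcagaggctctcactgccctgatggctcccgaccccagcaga
The upstream window held 16 CpG, 1 CCAAT and 3 GGGCGG, and the downstream window 6 CpG and none of the 3 letter strings. Around the annotated upstream start at position 76629293, H3K4me3 averaged 4.13 RPKM, at percentile 85.1 of all promoters, H3K27me3 0.386 RPKM at percentile 52.3, and methylation 0.288. Around the downstream starts at 76576421, 76576450 and 76576691, H3K4me3 averaged 0.646 to 0.671 RPKM and methylation was 0.849 to 0.879. The FPKM table has 1 value for the gene, so the level of each form is not known from these data.

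The remaining collagens above 5 FPKM in EpiSCs belong to smaller groups. Col7a1, the anchoring fibril under skin epithelium, had 11.5 and 19.2 FPKM in EpiSCs and 0.0517 to 0.840 in feeder-free libraries, and EpiSCs were higher than fPSCs by 3.43 ± 0.180 (log2, SE, limma adjusted p = 1.30e-08). Col6a1, of the beaded filaments around cells, had 9.86 and 12.9 FPKM against at most 0.203, and a difference of 3.54 ± 0.0990 (adjusted p = 4.43e-11). Col8a1, a short-chain network collagen of vessel walls and the eye, had 5.65 and 7.59 FPKM against at most 0.0160. Col16a1, a fibril-associated chain, had 4.50 and 7.18 FPKM against at most 0.798. For each of these 4 genes both EpiSCs libraries lay above every feeder-free library, as the rule of the EpiSC-restricted set requires. All 4 were tested only through the EpiSCs libraries, so the adjusted p values given are no evidence. Type VI needs 3 different chains, and Col6a2 had 2.90 and 3.07 and Col6a3 1.16 and 1.17 FPKM, so that Col6a1 was 3.40 and 4.21 times Col6a2 in EpiSCs.

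Col9a3, Col9a2 and Col23a1 had their highest values in feeder-free libraries. Col9a3, a chain of the cartilage collagen IX, had 0.681 and 0.847 FPKM in EpiSCs, 0.746 and 0.262 in mESCs, 0.969 and 1.42 in EpiLCs, and 0.862 to 7.6 with a median of 1.43 in long-term fPSCs. EpiSCs overlapped mESCs and were below each fPSC library, but the difference did not pass the test. Its partner Col9a2 had 0.654 and 0.610 FPKM in EpiSCs, 2.66 and 3.22 in EpiLCs, 1.19 and 0.175 in mESCs, and 0.751 to 1.40 with a median of 1.04 in long-term fPSCs, and was the collagen called lower in EpiSCs than in EpiLCs (log2 difference -1.27 ± 0.247, SE, limma adjusted p = 0.00160). It was also lower in long-term fPSCs than in EpiLCs (-0.94 ± 0.198, adjusted p = 0.00585) and higher in EpiLCs than in mESCs (1.29 ± 0.247, adjusted p = 0.00152). Col23a1, a transmembrane collagen, had 0.760 and 1.03 FPKM in EpiSCs, 5.73 in Epiblastoids day 4 and 1.58 in 46C P24, and 0.0528 to 0.349 in the 6 other long-term fPSC libraries.

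Epiblastoids have 1 library a day, so the changes over time describe those libraries and have no test. Between days 2 and 3, 0 of 8 collagens at 1 FPKM or more changed 2-fold on the log2(FPKM + 1) scale, where 3.11% of all genes rose and 2.47% fell. From day 3 to day 4, 6 of 12 were past 2-fold upward (7.85% of all genes) and 1 downward (8.22%). Genes entered at 1 FPKM or more on either day. Col13a1, Col23a1, Col9a1 and Col6a2 were below 1 FPKM at day 3 and so had to be higher at day 4. The first 3 of them are among the 6, so this count is no test. Col4a1 went from 7.58 to 44.5 FPKM and Col4a2 from 2.66 to 23.1, which were the highest feeder-free values of both. Col23a1 went from 0.0269 to 5.73 FPKM, Col13a1, another transmembrane collagen, from 0 to 3.87, Col9a3 from 2.50 to 6.47 and Col9a1 from 0.00617 to 1.15. Col18a1 went the other way, from 108 to 26.6 FPKM, a level near that of mESCs. The summed collagen level hardly moved, from 135 to 131 FPKM, while its main source passed from Col18a1 to the type IV pair. The median of all genes shifted by 0.12 between days 2 and 3 and by -0.13 between days 3 and 4, and after scaling to the upper quartile the same 6 were higher and Col18a1 lower at day 4. At day 4 the fibrillar chains that reached 5 FPKM in any library did not reach EpiSCs levels, with 0.866 FPKM of Col1a1 and 0.0208 of Col3a1. Marker lists moved in the same libraries. From day 3 to day 4 the mesoderm and streak list went from 61.5 to 713 FPKM with 8 of 8 genes at 1 FPKM or more at day 4, the endoderm list from 28.7 to 234 FPKM with 7 of 10, and the fibroblast list from 17.8 to 59.4 FPKM with 7 of 18. Of the first list, Mixl1 went from 1.65 to 254 FPKM, Lefty2 from 7.23 to 147, Eomes from 34.4 to 145 and Mesp1 from 0 to 74.7. Of the endoderm list, Sox17 was at 68.7 FPKM, Gata6 at 38.4, Pdgfra at 20.1 and Gata4 at 11 at day 4. The part of any of these cell types in the collagen values was not tested.

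**Figure D4:**
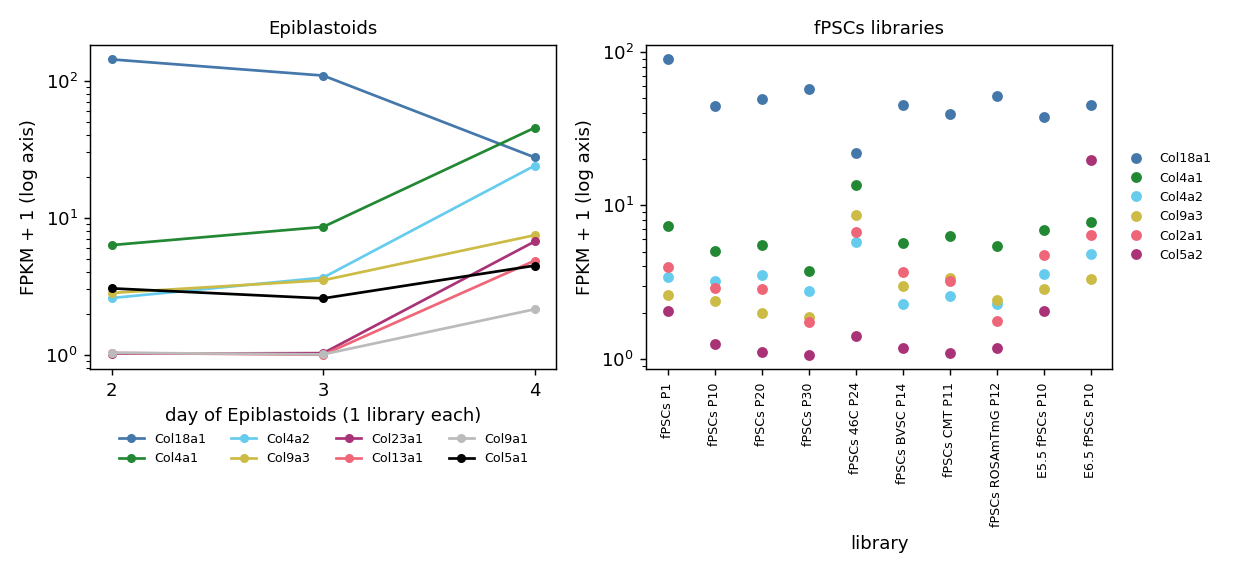
FPKM + 1 (log axis) of collagens in Epiblastoids at days 2, 3 and 4 (left) and in fPSC libraries (right), 1 library a point. The right panel holds P1, the 7 long-term libraries and the lines from E5.5 and E6.5 epiblasts. Col4a1 and Col4a2 reach 44.5 and 23.1 FPKM at day 4 while Col18a1 is at 26.6, and among fPSCs 46C P24 has the highest Col4a1, Col4a2, Col2a1 and Col9a3 and the lowest Col18a1.

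Among the 7 long-term fPSC libraries, 46C P24 had a make-up between that of day 4 and those of the other fPSCs, as Col18a1 was still its largest source with 32.8% against 27.1% from the type IV pair, and its summed collagen level was 64.1 FPKM. It had the highest Col4a1 (12.6 FPKM, next 5.33), Col4a2 (4.81, next 2.53), Col2a1 (5.68, next 2.66) and Col9a3 (7.6, next 2.34), and the lowest Col18a1 (21.0, against 38.5 or more in the others). Its Sox17 was 50.6 FPKM, Gata6 21.8, Gata4 9.10 and Foxa2 81.9, and its endoderm list summed to 208 FPKM, the highest of the 7 (lowest 30.7). Its mesoderm and streak list was also the highest of the 7, with 117 FPKM against 29.6 in the lowest, and Eomes at 48.5, T at 30.3 and Mixl1 at 29.9 FPKM. Its fibroblast list, with 24.5 FPKM, lay within the 16.4 to 30.1 of the fPSCs. Outside the 7, the E5.5 and E6.5 lines had Foxa2 at 68.01 and 58.77 FPKM and Sox17 at 12.7 and 11.56. Their Eomes was 62.38 and 47.05 FPKM and their Mixl1 43.09 and 44.47, so these markers were not particular to 46C P24. The part of such cells in the collagen values was not tested. The other fPSC libraries were close to each other, with Col4a1 from 2.75 to 5.33 FPKM over passages 10 to 30 and over 3 backgrounds, and Col18a1 from 38.5 to 56.5 FPKM.

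The genes that collagens need were compared by lists chosen by function. Of the enzymes and chaperones that modify, fold and export collagen, 11 of 18 tested were higher in EpiSCs than in fPSCs (19% of all genes) and 0 lower (13.3%); 17 of the 18 would have been tested without the EpiSCs libraries, all 11 among them. Serpinh1 (HSP47), the collagen-specific chaperone, had 408 and 450 FPKM in EpiSCs, 18.5 and 9.91 in mESCs, and 67.4 or more with a median of 94.7 in long-term fPSCs. Fkbp10, a foldase of procollagen, had 64.4 and 104 FPKM in EpiSCs and a median of 13.8 in fPSCs, and Plod1, a lysyl hydroxylase, 28.3 and 38.2 against a median of 5.02. In mESCs, Fkbp10 had 0.958 and 0.684 FPKM, and fPSCs were higher than mESCs for Fkbp10 by 3.06 and for Serpinh1 by 2.77 (log2, limma adjusted p = 6.70e-06 and 4.12e-05). Not all of the machinery went this way. Crtap and P3h1, which act together in prolyl 3-hydroxylation, and P4ha1, a prolyl 4-hydroxylase subunit, were lower in fPSCs than in mESCs by log2 differences of -1.99, -1.78 and -2.0. In total 3 of 18 were higher (17.3% of all genes) and 6 lower (23%) in fPSCs than in mESCs.

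Of the genes of processing and cross-linking, 7 of 10 tested were higher in EpiSCs than in fPSCs (19% of all genes) and 0 lower (13.3%), but 3 of the 10 were tested through the EpiSCs libraries alone, and of the other 7, 4 were higher. The cross-linking oxidase Loxl2 had 74.0 and 94.1 FPKM in EpiSCs and a median of 0.630 in fPSCs (log2 difference 5.62, limma adjusted p = 8.40e-07). Bmp1, the procollagen C-proteinase, had 48.4 and 68.6 FPKM in EpiSCs and a median of 1.86 in fPSCs. Its enhancer Pcolce had 77.1 and 85.9 FPKM in mESCs and 44.4 and 52.5 in EpiSCs but a median of 1.65 in fPSCs, a log2 difference of fPSCs to mESCs of -4.87 (adjusted p = 1.40e-06). This enhancer was thus at its highest in mESCs, where Col1a1 had at most 0.214 FPKM.

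Of the collagen receptors tested, 2 of 3 were higher in EpiSCs than in fPSCs (19% of all genes), Itgb1 (1.60) and Ddr1 (0.81 on the log2 scale). Of the basement membrane partners, 9 of 10 were higher in EpiSCs than in fPSCs (19% of all genes) and 0 lower (13.3%). In fPSCs against mESCs 5 of 10 were lower (23% of all genes) and 2 higher, a share near the 17.3% of all genes. Nid1, which links laminin to type IV collagen, had 36.2 and 58.4 FPKM in EpiSCs and 78.9 and 42.4 in mESCs but a median of 0.342 in fPSCs (log2 difference of fPSCs to mESCs -5.41, limma adjusted p = 2.44e-09). Lama1 was lower in fPSCs as well (-4.22), while Pxdn, the peroxidase that cross-links type IV collagen, was higher (3.88, adjusted p = 5.19e-06), with 0.135 and 0.0735 FPKM in mESCs and a median of 14.5 in fPSCs. Between mESCs and fPSCs, Nid1 and Lama1 thus fell while Col4a1 and Pxdn rose, the call of Col4a1 being lost without mESCs replicate 2. Of degradation genes, 6 of 6 tested were higher in EpiSCs than in fPSCs (19% of all genes). Mmp9 and Timp2 were tested through the EpiSCs libraries alone and had to be high there, and the other 4 were all higher. The gelatinase Mmp9 had 40.5 and 66.6 FPKM in EpiSCs against a median of 0.0733 in fPSCs (log2 difference 5.57, limma adjusted p = 1.20e-10), and Timp2 35.6 and 52.9 FPKM.

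The promoters of the collagens were read in fPSCs P10 from 1 file for H3K4me3, 1 for H3K27me3 and 1 for DNA methylation, each of which joins its replicates, so there is no replicate error. Of 44 collagens, 30 lay in the top 25% of promoters for H3K27me3 (25% of promoters by construction), and 8 in the top 25% for H3K4me3 (25%). In the top 25% for both marks were 7, as were 4% of 22089 protein-coding promoters: Col12a1, Col14a1, Col1a2, Col26a1, Col2a1, Col4a1 and Col4a2. The last pair is 1 shared region. Within 1000 bp of the start, Col1a2 and Col2a1 left the top 25% for H3K4me3, at percentiles 64.6 and 71.9. Methylation was at most 0.2 in 13 of 44 (32.7% of promoters) and at least 0.8 in 10 (33.1%). The median H3K27me3 was 0.959 RPKM over collagens and 0.36 over all promoters, and the median H3K4me3 1.38 and 1.74.

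**Figure D5:**
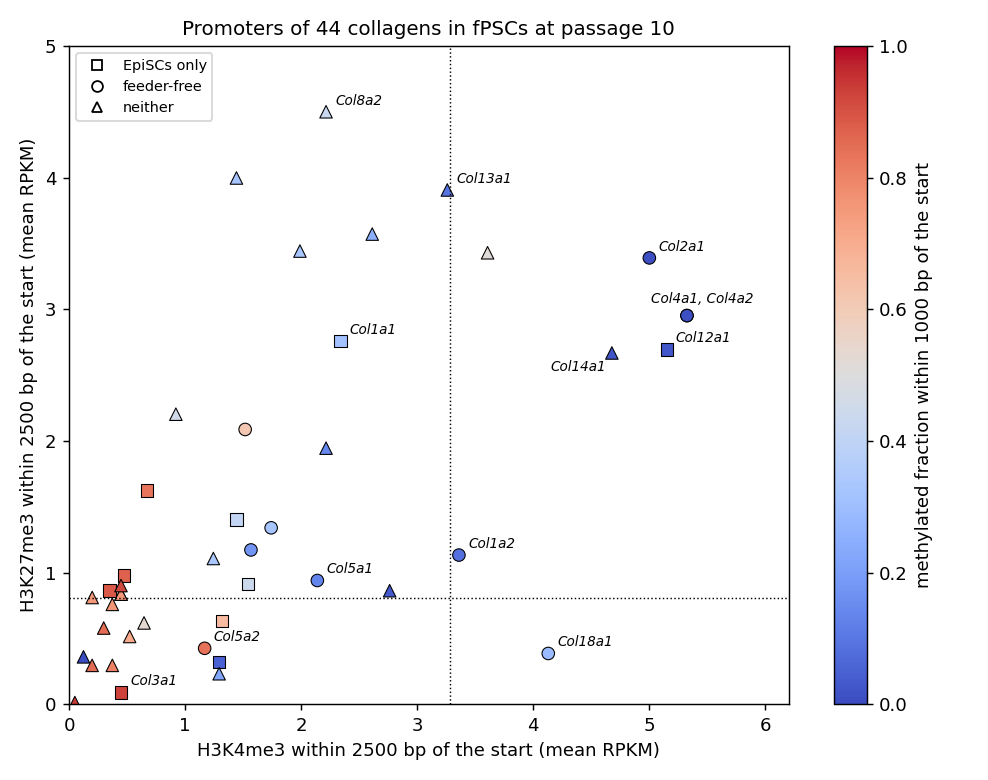
Mean H3K4me3 (horizontal) against mean H3K27me3 (vertical), in RPKM within 2500 bp of the start in fPSCs P10, for the 44 collagens coloured by methylation level, with squares for EpiSC-restricted, circles for feeder-free and triangles for other collagens; dotted lines are the limits of the top 25% of all promoters. Col2a1, Col4a1, Col4a2, Col12a1 and Col1a2 lie in the upper right with low methylation, and Col18a1 lies at high H3K4me3 with little H3K27me3.

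The marks in fPSCs were also set beside the level sets, which did not use these files, as a description. Median H3K4me3 was 1.31 RPKM for the EpiSC-restricted and 2.75 RPKM for the feeder-free collagens, median methylation 0.547 and 0.153, and median H3K27me3 0.946 and 1.26 RPKM. The EpiSC-restricted genes varied among themselves. Col1a1 had 2.76 RPKM of H3K27me3 with 2.34 of H3K4me3 and a methylation of 0.314, and Col12a1 had 2.69 and 5.15 RPKM with 0.0253, so both were in the top 25% for H3K27me3. Col3a1 and Col6a1 instead were methylated at 0.928 and 0.888 with 0.447 and 0.348 RPKM of H3K4me3. Among the feeder-free genes Col2a1 had 3.39 RPKM of H3K27me3 with 5.00 of H3K4me3 and a methylation of 0.00615 and was expressed at 1.89 FPKM in P10, while Col5a2 was methylated at 0.839 and had 0.241 FPKM. Col18a1, the most abundant collagen of fPSCs, was in the top 25% for H3K4me3 but not in that for H3K27me3, unlike the other 7 of the 8.

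Promoter sequences of RefSeq were matched for 35 of the 44 collagens, as 38 windows of 300 bases. GGGCGG on either strand stood in 23 of 38 windows, against 35.9% of 32544 promoters, CCAAT in 13 (37.4%) and TATAAA in 5 (13.6%). The median number of CpG per window was 11.5 for the EpiSC-restricted, 20 for the feeder-free and 8.5 for the other collagens, and 7 over all promoters. These are counts of letters and give no binding. Col5a2, Col4a3, Col1a1, Col14a1, Col22a1, Col2a1, Col9a3, Col26a1 and Col12a1 were not matched.

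Single fPSCs of 4 clones give counts per gene, with 46, 46, 46 and 44 cells, of which 181 had at least 500 genes. The median total per cell was 19080 to 33880 counts by clone, and whether a count is a read or a molecule is not given in the sources used here. A Col18a1 count was present in 113 of 181 cells (62.4%, exact binomial 95% interval 54.9 to 69.5), and Col18a1 summed to 91.7 to 222 CPM (counts scaled to the clone's total) by clone. Col4a1 was present in 47 cells (26.0%, 19.7 to 33.0) with 21.3 to 45.3 CPM, and Col4a2 in 17 cells (9.39%). Both were seen together in 7 cells. The intervals cover counting error only. No cell type that should lack collagens was sequenced with them, and Pou5f1, at 462 to 1025 FPKM in bulk, had a count in only 17 of the 181 cells, so a missing count does not show that a cell lacks a gene.

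Some genes did not follow the bulk values. Col1a1 had counts in 53 cells (29.3%) but only 143 counts in all, 4.03 to 29.0 CPM by clone, and 53 of these counts were in 1 cell. Col13a1 had 345 counts in 29 cells and Col19a1 129 counts in 11 cells, of which 130 and 92 were in 1 cell each, although long-term fPSCs had at most 0.151 and 0.0255 FPKM of these genes in bulk. Bulk values and single-cell counts thus disagreed for these genes. Most Col19a1 counts came from 1 cell, but most counts of Col1a1 and Col13a1 lay outside their highest cell.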

How the data were processed

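Bulk RNA-seq values are FPKM as the authors deposited them, in 1 table of 23608 entries for 19 libraries. Per the study's methods, reads were trimmed with cutadapt and mapped to mouse cDNA with TopHat2, and FPKM came from Cufflinks; the submitters' notes name mm9, TopHat2 2.1.1, Cufflinks 2.1.1 and cutadapt 1.11. FPKM keeps no depth, so no count test or counting interval was possible for bulk values. The 4 entries of 2 repeated symbols were left out. Of 25 listed modifying and folding genes, 20 were in the table, the others being older symbols. ChIP-seq signal is RPKM per 100 bp bin, deposited by the authors after removing duplicates and merging replicates. If the lowest value is 1 read, the files held about 8.06e+06 (H3K4me3) and 1.56e+07 (H3K27me3) reads, with 99.9% and 99.1% of bins whole within 0.05. DNA methylation was deposited as a fraction without coverage, made by the authors with BS-Seeker2, so its depth is unknown. Single-cell values are the counts per gene the authors deposited after Drop-seq tools; 1 cell name appeared in 2 columns with different values, and both were kept.

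Group differences were tested with limma 3.58.1 in R 4.3.3 (trend, group as the only term) on log2(FPKM + 1) of 13 libraries, 2 each of mESCs, EpiLCs and EpiSCs and 7 long-term fPSCs, which share 1 estimate of the spread. The fit covered the 12513 genes that reached 1 FPKM in 2 or more of these libraries. A fold change on this scale understates that of low genes. P1, Epiblastoids and epiblast-derived lines have 1 library each and were not fitted. The FPKM ratio of Col4a1 to Col4a2 was compared by an exact permutation test in scipy 1.17.1. Promoter signal was averaged within 2500 bp (ChIP) or 1000 bp (methylation) of the mm9 start, and all 44 collagens were matched, Col26a1 under its older name Emid2. Promoter letters are from RefSeq (GRCm38.p6 table) and their mm9 positions from an exact match to NCBIM37.

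The collagens and gene lists were chosen with earlier results of these data known. Collagens at 5 FPKM or more in any library were described, with chain partners, and of each other list the 3 largest rises and falls past the threshold or the most abundant markers; defining markers at or near 0 and the genes of counts of 5 or fewer were added after their values were seen. Alternatives were another pseudocount, no filter, upper-quartile scaling, fewer libraries or groups, a 2-fold limit, a replicate block, other level limits and other windows.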

Additional observations from a re-analysis of the deposited data

Results flagged for a closer look

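In the 7 long-term fPSC libraries, 15 collagens were checked for a library far from the rest, and 6 had one, each time 46C P24 as the highest. Its values were 1.58 FPKM for Col23a1, 5.68 FPKM for Col2a1, 7.6 FPKM for Col9a3, 1.08 FPKM for Col1a2, 12.6 FPKM for Col4a1 and 4.81 FPKM for Col4a2. The next highest libraries had 0.349, 2.66, 2.34, 0.613, 5.33 and 2.53 FPKM of these genes. Chance alone marks about 1 in 20 such groups, and the genes are not independent since they share the library. Sox17 had 50.6 FPKM and Foxa2 81.9 FPKM in 46C P24, and their part in these values was not tested. The type IV genes and Col2a1 kept their calls in EpiSCs against fPSCs and in fPSCs against mESCs without this library.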

How the results depend on the processing

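Of 86 alternative values of 14 counts and shares, 78 stayed within 1.5 times the reported value or its interval. With a pseudocount of 0.1 the collagens called numbered 6 for EpiLCs against mESCs, 11 for fPSCs against mESCs and 5 for fPSCs against EpiLCs, in place of 3, 4 and 2. A 2-fold limit left 1 for fPSCs against EpiLCs, and a limit of 0.5 FPKM gave 6 EpiSC-restricted and 19 feeder-free collagens; the cause was not tested. Of the fPSCs, only the library flagged above and the cryopreserved one were left out. Without the flagged library 19 collagens were called for EpiSCs against fPSCs, 5 for fPSCs against mESCs and 2 for fPSCs against EpiLCs. Without the cryopreserved one the numbers were 18, 3 and 2. Each library of mESCs, EpiLCs and EpiSCs was also left out in turn, which leaves 1 library in that group. Calls changed in these fits, as given above. Without mESCs replicate 2, fPSCs differed from mESCs by 0.884 for Col18a1 and 0.457 for Col4a2 (log2). Without EpiLCs replicate 2, fPSCs differed from EpiLCs by -0.839 for Col9a2. Without EpiLCs replicate 1 it was -1.235 for Col18a1 and -0.684 for Col5a2. For the level sets the flagged library was the only one left out singly, which gave 10 EpiSC-restricted and 8 feeder-free collagens. For single genes, 483 of 506 alternatives kept direction and call, 23 lost the call and 0 reversed; Col23a1 in EpiSCs against mESCs and Col4a2 in fPSCs against mESCs were lost in 6 each.

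The numbers of mESCs, EpiLCs and EpiSCs libraries were not shown to pair them (correlations of deviations 0.204, -0.199 and -0.134). With the replicate number as a block, on these 3 groups alone, 19 collagens were called for EpiSCs against mESCs, 19 against EpiLCs and 3 for EpiLCs against mESCs, the same as without the block on these groups.

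Read depth is unknown for FPKM and methylation, so low values carry an unknown counting error. EpiSCs, mESCs and EpiLCs have 2 libraries each and every day of Epiblastoids 1. Leaving out 46C P24 or CMT P11 and refitting the 3 groups without the block were chosen after seeing the data.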
